A study of Oryza sativa with 6 samples.

Results

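PSBO (LOC_Os01g31690, chromosome 1), PSBP (LOC_Os07g04840, chromosome 7) and PSBQ (LOC_Os07g36080, chromosome 7) are nuclear rice genes for the extrinsic proteins of the oxygen-evolving complex, and PSBS (LOC_Os01g64960, chromosome 1) is a nuclear gene for a photoprotective subunit of photosystem II. These 4 genes were picked by locus identifier from the 55801 loci in the deposited count tables, and all 4 passed the filter on low counts. The PM libraries (n = 3) came from Oryza sativa plants of the genotype Nipponbare taken 30 min before the lights went off, and the AM libraries (n = 3) from plants of the same genotype taken 30 min before the lights came on. All plants were kept on Chu's medium at 28 °C under 12 h of light and 12 h of darkness, and neither group carried a transgene or received an agent according to the labels. Whole seedlings were frozen for RNA extraction, although the labels also give the organ as panicle. The series was set up to compare expression and splicing between these times and to ask how the choice of mapping genome alters the outcome, and only the counts by locus were analysed here.

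Photosystem II sits in the thylakoid membrane and uses light to take electrons from water, which releases oxygen and protons into the thylakoid lumen. A manganese and calcium cluster on the lumen side carries out this step. PsbO shields and stabilises the cluster, while PsbP and PsbQ help retain the calcium and chloride it needs. PsbS does not take part in water oxidation. It senses the acidification of the lumen in strong light and switches the antenna to releasing absorbed energy as heat, a process that zeaxanthin enhances. All 4 proteins are made in the cytosol and imported into the chloroplast.

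The PM libraries held 13 M to 41.7 M gene counts and the AM libraries 22.3 M to 66.7 M. The labels do not say whether replicates came from different plants, and the spread behind every p-value may therefore be technical. The times of day were checked on clock genes. LHY, a transcription factor that peaks around dawn, lay between 2.56 and 7.65 CPM in PM and between 3802 and 4152 CPM in AM (CPM, read counts scaled to the TMM-normalised library size), while LUX, an evening gene, lay between 81.0 and 195 CPM in PM and between 0.278 and 0.923 CPM in AM. Against the panicle label, the 9 floral organ markers together reached 3.63, 3.85 and 3.73 CPM in PM replicates 1, 2 and 3, and 2.94, 2.98 and 1.94 CPM in AM replicates 1, 2 and 3. Of these, 4 were tested, and 1 of them, MADS58, was higher in PM (log2 fold change 1.69, SE 0.41, edgeR adjusted p = 0.00754) without overlap, where 28.0% of all tested loci were called higher. MADS8 had no count in any library, and MADS6 and MADS7 had 1 count each over all libraries. A count of 0 allows up to 3 counts in a library, or 0.0548 to 0.173 CPM. Of the 5 root markers, LSI2 and LOC_Os02g44310 had no count in any library, and the 5 together reached 16.3 to 20.5 CPM in PM and 34.0 to 47.2 CPM in AM. As shares of gene counts the groups overlapped, at 0.00218% to 0.00282% in PM and 0.00265% to 0.00385% in AM. Of the 3 tested root markers, LSI1 and HKT2;1 were lower in PM, as were 28.0% of all tested loci. HKT2;1 overlapped between the groups, with 1.32 to 3.38 CPM in PM and 2.89 to 15.1 CPM in AM, and was not called when libraries were scaled by their totals alone (log2 −0.98, edgeR adjusted p = 0.181).

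All 4 genes were lower at the end of the day than at the end of the night, by 8.59-fold to 19.9-fold in the fitted model, and no PM value of any of them reached its AM values. Of the 20548 loci tested, 55.9% were called in either direction and 28.0% were lower in PM (edgeR quasi-likelihood test, Benjamini-Hochberg adjusted p of 0.05), and at 31.9% all PM values lay below all AM values. Loci called lower and by more than 8-fold, as these 4 were, made up 5.43% of the loci tested. The median log2 fold change of the 4 genes was −3.51, against −0.01 over all tested loci. In whole plants, fewer cells of a type and less RNA per cell cannot be told apart. The 3 green leaf markers RCA, RBCS3 and PRK were also all lower in PM, with a summed level of 6555 to 7815 CPM in PM and 46174 to 62581 CPM in AM, a difference that lay mostly in RCA and PRK. RBCS3, at −0.84 on the log2 scale (SE 0.22, edgeR adjusted p = 0.0117), took 0.565% to 0.669% of gene counts in PM and 0.570% to 0.674% in AM, and stood at 0.01 with library totals alone, while RCA and PRK were then at −3.60 and −2.03. The part of leaf content in the results was not tested.

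PSBO had 1095, 870.1 and 1525 CPM in PM replicates 1, 2 and 3, against 10863, 19520.0 and 9729 CPM in AM replicates 1, 2 and 3. The groups were far apart, with the highest PM library well under the lowest AM library, and AM replicate 2 stood above the other AM libraries. Its mean was 1163 ± 333 CPM in PM and 13371 ± 5355 CPM in AM (SD, n = 3 each). PsbO is the manganese-stabilising protein, and the PM mean of its transcript was 8.70% of the AM mean. On the log2 scale PM over AM came to −3.52 (SE 0.38, edgeR adjusted p = 9.47e-05), with 3.98% of tested loci at a lower value.

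PSBP had 887, 531 and 1147 CPM in PM replicates 1, 2 and 3, against 5969, 10367 and 5702 CPM in AM replicates 1, 2 and 3. The groups did not overlap, and the order of the libraries within each group was that of PSBO. PsbP is the extrinsic protein that lowers the calcium and chloride demand of water oxidation. Its transcript averaged 855 ± 309 CPM in PM and 7346 ± 2619.8 CPM in AM (SD, n = 3 each), and its log2 fold change was −3.10 (SE 0.38, edgeR adjusted p = 0.000193), the smallest change of the 4.

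PSBQ had 449, 281 and 627 CPM in PM replicates 1, 2 and 3, against 3658, 6501 and 5080.2 CPM in AM replicates 1, 2 and 3. Here too every PM library lay below every AM library, but AM replicate 3 took the middle place that AM replicate 1 held for PSBO and PSBP. PsbQ binds at the lumen side next to PsbP. Its mean was 452 ± 173 CPM in PM and 5079.7 ± 1421 CPM in AM (SD, n = 3 each), a log2 fold change of −3.49 (SE 0.37, edgeR adjusted p = 8.33e-05).

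PSBS had 106, 80.4 and 135 CPM in PM replicates 1, 2 and 3, against 1489.7, 2405 and 2497 CPM in AM replicates 1, 2 and 3. AM replicate 3 was the highest library, unlike for the 3 genes of the oxygen-evolving complex, and the nearest libraries of the groups were still far apart. The mean was 107 ± 27.5 CPM in PM and 2131 ± 557 CPM in AM (SD, n = 3 each), so that the PM level was 5.03% of the AM level. Its log2 fold change of −4.31 (SE 0.31, edgeR adjusted p = 1.19e-05) was the largest of the 4, and 2.58% of tested loci had a lower value.

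**Figure D1:**
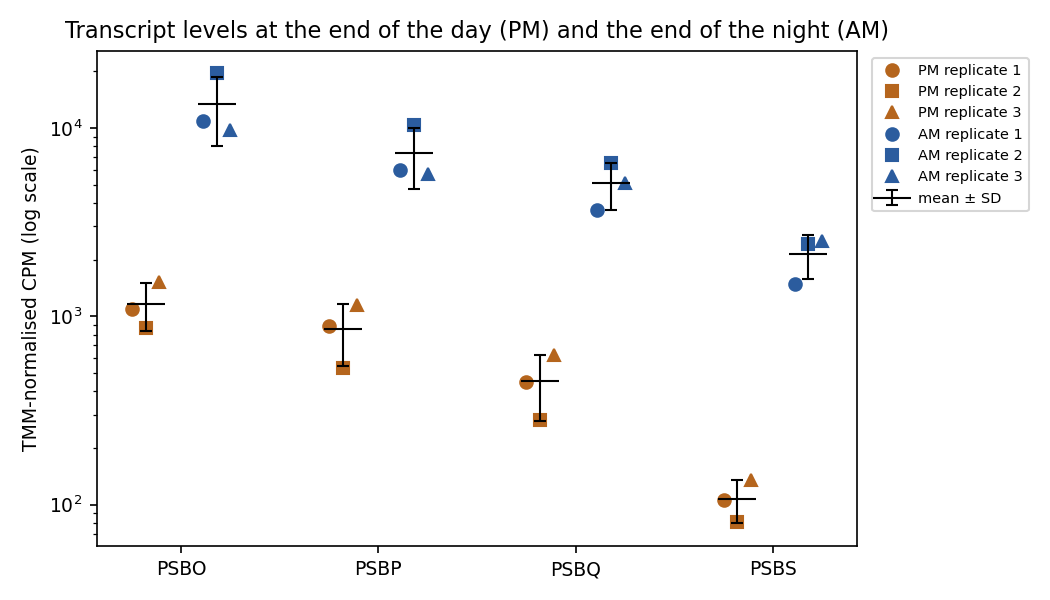
Level of each gene in each library, in TMM-normalised CPM on a log axis, with PM left of AM and bars for the mean ± SD (n = 3). The 4 PM groups lie below their AM groups without overlap, and as counts were not divided by gene length, heights of different genes are not comparable.

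The size of these changes depended on how libraries were scaled, and their direction did not. By library totals alone, which put the median of all tested loci at 0.84 on the log2 scale, the log2 fold changes were −2.64 for PSBO, −2.22 for PSBP, −2.63 for PSBQ and −3.46 for PSBS, each still past the threshold (edgeR adjusted p of 3.62e-06 to 0.000102). Reads of the 4 genes made up 0.345% ± 0.108 of all gene counts in PM and 2.03% ± 0.425 in AM (SD, n = 3 each). The highest PM library, at 0.451%, lay under the lowest AM library, at 1.71%, and the exact two-sided permutation p was 0.1, the smallest that 3 libraries against 3 can give. Counting error was small beside these differences, since the lowest count of any of the 4 genes in a library was 1397 and its relative Poisson error 2.68%.

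**Figure D2:**
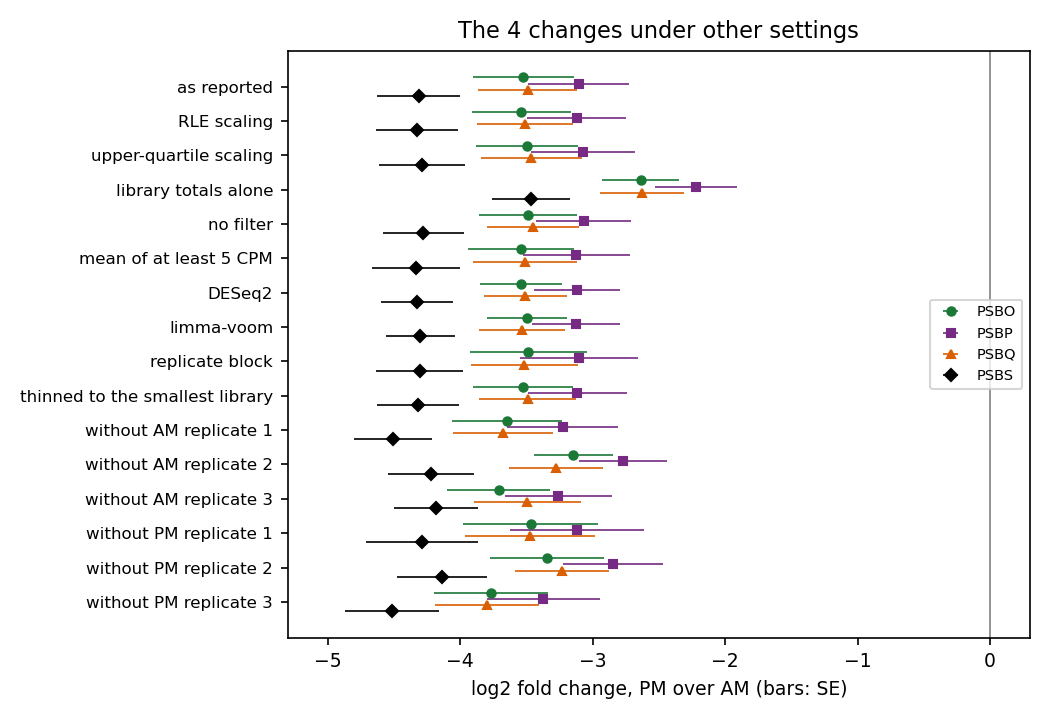
Log2 fold change of PM over AM with its SE for the 4 genes, as reported and under 15 other settings named on the vertical axis. All values stay below 0, with PSBS lowest under every setting and all 4 nearest to 0 with library totals alone.

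The ratio of 2 genes within a library does not depend on scaling between libraries, so the 6 pairs were compared in this way, as the log2 ratio of their reads. PSBS had fewer reads relative to each of the other 3 genes in all PM libraries than in any AM library. For every 100 reads of PSBO, PM replicates 1, 2 and 3 held 9.67, 9.24 and 8.88 reads of PSBS, against 13.7, 12.3 and 25.7 reads in AM replicates 1, 2 and 3. The PM libraries were close to one another and below all AM libraries, and AM replicate 3 stood far above the other AM libraries. The log2 ratio of PSBO to PSBS averaged 3.43 ± 0.06 in PM and 2.62 ± 0.57 in AM (SD, n = 3 each), a difference of 0.82 that was 0.49 without AM replicate 3. The difference was 1.19 for PSBP over PSBS, or 0.90 without AM replicate 3, and 0.78 for PSBQ over PSBS, or 0.67 without it. In all 3 pairs the groups did not overlap, and each exact two-sided permutation p was 0.1, the smallest that the design allows, or 0.12 adjusted over the 6 pairs, so none of the differences could pass 0.05. The 3 pairs share the reads of PSBS and are not separate results.

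Within the oxygen-evolving complex, PSBP had more reads relative to PSBO and PSBQ in every PM library. PM replicates 1, 2 and 3 held 80.9, 61.0 and 75.2 reads of PSBP for every 100 reads of PSBO, against 54.9, 53.1 and 58.6 reads in AM replicates 1, 2 and 3. All PM ratios were above all AM ratios, though PM replicate 2 came near to AM replicate 3. The log2 ratio of PSBO to PSBP was 0.48 ± 0.21 in PM and 0.85 ± 0.07 in AM (SD, n = 3 each), a difference of −0.37 (exact permutation p = 0.1, adjusted p = 0.12). That of PSBP to PSBQ was 0.92 ± 0.06 in PM and 0.52 ± 0.30 in AM, a difference of 0.41 (exact permutation p = 0.1, adjusted p = 0.12) that was 0.23 without AM replicate 3.

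The ratio of PSBQ to PSBO overlapped between the groups. PM replicates 1, 2 and 3 held 41.0, 32.3 and 41.1 reads of PSBQ for every 100 reads of PSBO, against 33.7, 33.3 and 52.2 reads in AM replicates 1, 2 and 3. The PM and AM libraries overlapped, with AM replicate 3 highest and PM replicate 2 lowest. The log2 ratio of PSBO to PSBQ was 1.40 ± 0.20 in PM and 1.36 ± 0.37 in AM (SD, n = 3 each), a difference of 0.04 (exact permutation p = 0.8, also after adjustment) that turned to −0.18 without AM replicate 3 and to −0.08 without PM replicate 2.

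**Figure D3:**
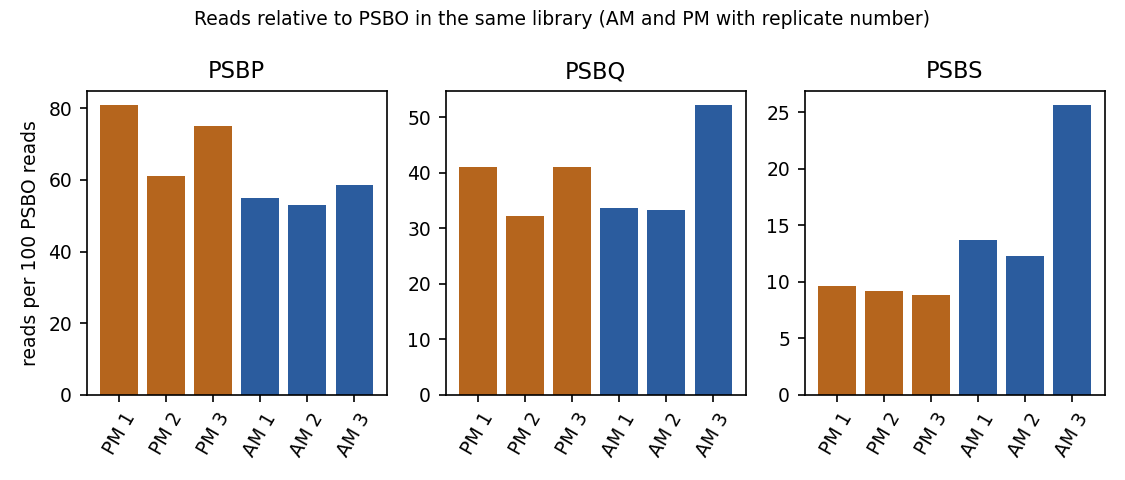
Reads of PSBP, PSBQ and PSBS for every 100 reads of PSBO in the same library, with the 3 PM libraries left of the 3 AM libraries and each vertical axis starting at 0. PSBP ratios are higher in all PM libraries, PSBS ratios are lower in all PM libraries, and AM replicate 3 has the highest PSBQ and PSBS ratios.

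Replicates of one group differed by up to 2.23-fold for these genes. In PM, replicate 3 was the highest and replicate 2 the lowest for all 4 genes. Over all tested loci PM replicate 2 was the lowest PM library at 39.9% and the highest at 39.4%. PM replicate 3 was the lowest at 34.6% and the highest at 39.7%. In AM replicate 2, PSBO and PSBP lay 0.93 and 0.83 log2 units above the mean of the other AM libraries, higher than at 96.3% and 94.99% of tested loci. AM replicate 3 split the genes, with PSBO and PSBP 0.58 and 0.46 log2 units under the mean of the other AM libraries, PSBQ 0.06 above it and PSBS 0.40 above it. Root markers HKT2;1 and AKT1 were also highest in AM replicate 3, at 15.1 CPM and 16.02 CPM, against 2.89 to 4.26 CPM and 9.17 to 10.5 CPM in the other AM libraries, while LSI1 was lowest there at 16.02 CPM. The part of such differences between AM libraries in the ratios was not tested.

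**Figure D4:**
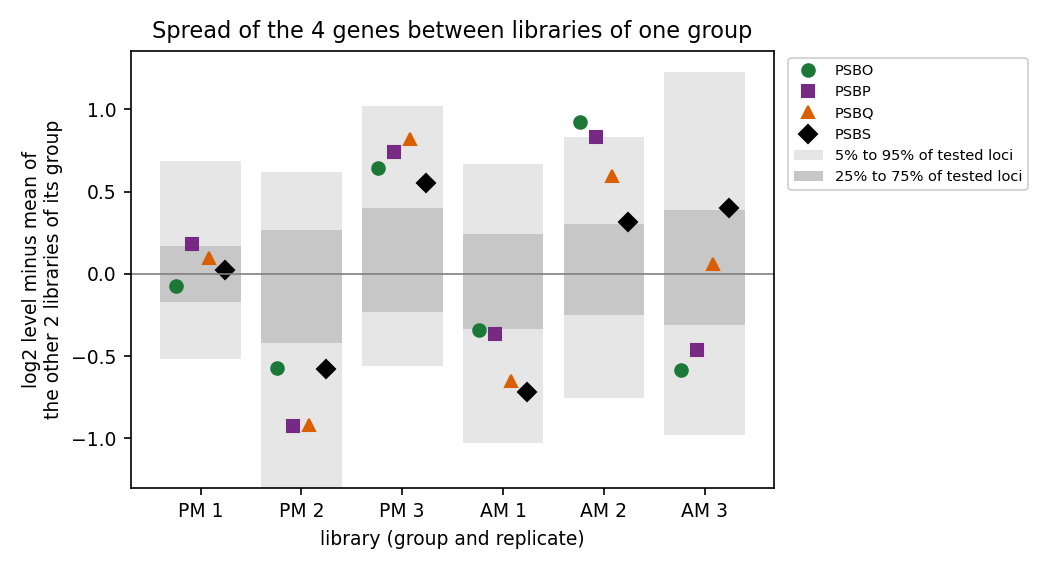
Log2 level of each gene in a library minus the mean of the other libraries of its group, with grey bars for the middle 50% and 90% of all tested loci. The 4 genes lie low in PM replicate 2 and high in PM replicate 3, and in AM replicate 3 PSBO and PSBP lie under 0 while PSBS lies at 0.40.

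The remaining nuclear photosystem II genes changed in the same direction. Of 8 listed loci, 7 were tested, and all 7 were lower in PM without overlap, with a median log2 fold change of −3.51. Of all tested loci, 28.0% were called lower and 31.9% had no overlap in this direction. The count was 6 without AM replicate 3 or without PM replicate 1. It was also 6 when a mean of 5 CPM was required, as LOC_Os07g05360 lay under that floor and was then not tested. LOC_Os07g05360 had the fewest reads of the 7, with 1, 1 and 37 in PM replicates 1, 2 and 3. It had 22, 63 and 256 reads in AM replicates 1, 2 and 3, and a log2 fold change of −3.61 (SE 1.05, edgeR adjusted p = 0.0175). Its raw reads overlapped between the groups, and its scaled levels did not, at 0.676 CPM in PM replicate 3 and 1.27 CPM in AM replicate 1. PSBW (LOC_Os01g56680), a small membrane subunit, had 902, 730.1 and 1562 CPM in PM replicates 1, 2 and 3, against 4257, 8651 and 4466 CPM in AM replicates 1, 2 and 3, a log2 fold change of −2.44 (SE 0.40, edgeR adjusted p = 0.000931). The groups did not overlap, and AM replicate 2 was again the highest library. PSB28 (LOC_Os01g71190), an assembly factor that is not part of the finished complex, had 68.6, 59.5 and 73.1 CPM in PM replicates 1, 2 and 3, against 263, 355 and 275 CPM in AM replicates 1, 2 and 3. Its log2 fold change was −2.15 (SE 0.19, edgeR adjusted p = 2.81e-05), with groups well apart. The other 6 listed loci rest on the identifier alone. Among them, LOC_Os04g59440, listed as PSBS2, had the lowest value of the list at −5.41 (SE 0.22), below the −4.31 of PSBS. Its mean was 4.62 CPM in PM and 199 CPM in AM. LOC_Os03g21560 had the highest value at −1.89 (SE 0.35), and the locus that was not tested had 1 count over all libraries.

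PSBS works together with the xanthophyll cycle, in which violaxanthin de-epoxidase makes zeaxanthin in strong light and zeaxanthin epoxidase turns it back. The loci listed for these enzymes moved in opposite directions, with the name of the first resting on the list and not on the RefSeq table. VDE (LOC_Os04g31040) had 243, 261 and 270.3 CPM in PM replicates 1, 2 and 3, against 152, 160.1 and 144 CPM in AM replicates 1, 2 and 3, and rose by 0.76 on the log2 scale (SE 0.15, edgeR adjusted p = 0.00235), or by 1.61 with library totals alone. ZEP (LOC_Os04g37619) had 5.98, 5.93 and 3.53 CPM in PM replicates 1, 2 and 3, against 507, 475 and 452 CPM in AM replicates 1, 2 and 3, a log2 fold change of −6.55 (SE 0.28, edgeR adjusted p = 1.15e-06). PSBS lay between them, at −4.31, and PM and AM values did not overlap for any of the 3 genes. Over all tested loci, all PM values lay below all AM values at 31.9%, and 28.0% were called higher in PM. The remaining entry of this list, LOC_Os08g45190, which rests on the list in the same way as VDE, had 38.8 ± 3.87 CPM in PM and 568 ± 69.9 CPM in AM (SD, n = 3 each), at −3.87 (SE 0.19, edgeR adjusted p = 2.02e-06).

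The 4 genes had smaller log2 fold changes than the light-harvesting antenna of the same photosystem. All 8 antenna genes listed were lower in PM without overlap, beside 28.0% of tested loci called lower and 31.9% without overlap in this direction, with a median log2 fold change of −10.52 and values from −10.80 for LHCB1a (LOC_Os01g41710) to −7.96 for LOC_Os01g52240, so that the range of the antenna and that of the 4 genes, −4.31 to −3.10, did not meet. Reads of near-identical LHCB1 copies can be split or lost in counting. The 8 photosystem I core genes listed were all lower as well, beside the same 28.0% of loci, with a median of −4.78, from −8.86 for PSAO (LOC_Os04g33830) to −2.94 for LOC_Os12g23200, and this range enclosed that of the 4 genes. The differences between the lists were not tested.

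**Figure D5:**
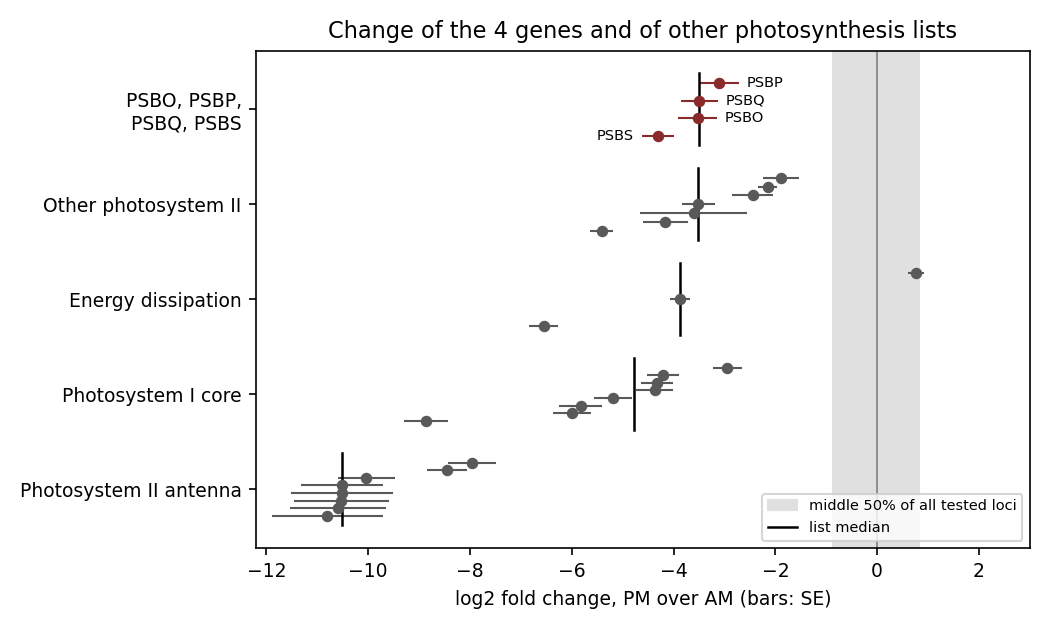
Log2 fold change of PM over AM for each tested gene of 5 lists, with bars for the SE, black lines for list medians and a grey band for the middle 50% of all tested loci. The 4 genes, between −4.31 and −3.10, lie among the other photosystem II and photosystem I genes and above the antenna genes, whose values run from −10.80 to −7.96.

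The likeness of profiles was measured as the Euclidean distance, over the 6 libraries, between log2 CPM values centred on each gene's own mean. Among the list genes, PSBO was nearest to PSBP (0.56) and PSBQ to PSBO (0.60). PSBP was nearest to LOC_Os12g23200 (0.52) and PSBS to LOC_Os07g25430 (0.65), both entries of the photosystem I list placed by identifier. These distances include the difference between PM and AM, and the log2 fold changes of these loci were −2.94 and −4.33. The distance of PSBS to PSBO was 1.29, to PSBP 1.64 and to PSBQ 1.04. Of 11313 other loci averaging 3 or more log2 CPM, the nearest to the mean profile of the 4 genes were LOC_Os11g32650 (0.28) and LOC_Os05g30190 (0.28), at log2 fold changes of −3.42 and −3.81, and the files do not pair these identifiers with names. The loci nearer to this mean profile than PSBO, PSBP, PSBQ and PSBS numbered 9, 49, 0 and 149. Each of the 4 genes is itself part of that mean, which makes its own distance smaller, and the other loci are not. These numbers therefore do not show how alike the 4 genes are beside other loci.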

How the data were processed

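The deposited files hold raw counts per locus for 6 libraries. The submitters' processing notes name Trimmomatic 0.33, the aligner STAR and the counting tool HTSeq 0.6.1. Libraries were built from 2 µg of total RNA with a NEB directional kit, per the labels' protocols. No source used here gives the STAR version, genome build, annotation or strand setting, so reads of overlapping or antisense genes are not separable and no coordinates are given. The 5 summary lines, which name no gene and held 45.6% to 59.2% of records, stayed out of library sizes and tests. Most of these records were alignments that were not unique, from 39.1% of records in PM replicate 3 to 56.1% in AM replicate 2. Reads shared between near-identical genes of any list can therefore be missing from the counts. Replicates differed by more than sampling noise (a chi-square of 18.7 to 133 for each degree of freedom), and each library was treated as its own sample.

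The test of PM against AM was edgeR's quasi-likelihood test (edgeR 4.0.16 under R 4.3.3) on TMM-scaled counts of loci kept by filterByExpr at a minimum count of 10, with Benjamini-Hochberg adjustment over all tested loci at 0.05. SEs come from the coefficient and its F statistic. Profiles used log2 CPM with a prior count of 2, and pair ratios a pseudocount of 0.5. On counts simulated for PM against AM at 20197 loci, 30% of 100 loci changed 2-fold and 94% of 100 changed 4-fold were recovered, and 13 unchanged loci were called. The changed loci averaged above 5 CPM, rose and fell in equal numbers, and all other loci were left unchanged. In the data 55.9% of loci were called, so the simulation does not give the recovery or the false calls of this comparison. Other settings were RLE and upper-quartile scaling, library totals alone, no filter, a floor of 5 CPM on the mean, DESeq2 1.42.0, limma-voom (limma 3.58.1), a replicate block, thinning to the smallest library and leaving out each library.

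The 4 genes and all lists were chosen with earlier results of these data known. The rule for named genes took the 4, the other photosystem II genes, the lowest and highest of the lists and the nearest profiles, and loci without a RefSeq match are given by identifier or in counts. The exceptions, named without a match, are PSBO, PSBP and PSBS, whose names were given with their identifiers, and VDE, PSAO, PRK, LHCB5 and PSBS2, whose names rest on the lists. Markers are named where a result touches them, and LHCB2 and LHCB5 were named after their values were seen. Of 52 list entries, 27 matched a symbol of the RefSeq gene table of assembly ASM3414082v1 by chromosome and relative place (tolerance 0.1), 24 symbols were not found in it and rest on the lists alone, and LHCB1b lay outside the tolerance and was kept. No sequences were used here.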

Additional observations from a re-analysis of the deposited data

How the results depend on the processing

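The 4 genes were lower in PM and past the threshold under all 15 alternatives tried, with ranges of −3.76 to −2.64 for PSBO, −3.37 to −2.22 for PSBP, −3.80 to −2.63 for PSBQ and −4.51 to −3.46 for PSBS. The value nearest to 0 came from library totals alone in each case. Loci called higher and lower numbered 5748 and 5745, and 11201 and 2764 with library totals alone, which leave out the composition scaling. The difference between PSBO and PSBQ, 0.04, turned to −0.18 without AM replicate 3 and −0.08 without PM replicate 2, within a range of −0.18 to 0.15 when each library was left out, and the cause was not tested. The other 5 pairs and the share of gene counts kept their direction under the pseudocount of 2, the wider total and each library left out, where these applied. Same-numbered libraries did not deviate together (correlations of −0.06, −0.27 and 0.10 for numbers 1, 2 and 3). Correlations between libraries of different numbers ran from −0.41 to 0.39. Such correlations cannot show whether the libraries were paired by number. With the replicate block the log2 fold changes were −3.48, −3.10, −3.52 and −4.31 for PSBO, PSBP, PSBQ and PSBS, and 5077 loci were higher and 5060 lower. Depth did not limit the 4 genes, whereas floral and root markers rest on few counts.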

Other observations

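The order of the PM libraries differed between the 4 genes and the antenna genes. PM replicate 2 was the lowest PM library for all 4 genes and for 6 of 7 tested photosystem II genes and 7 of 8 photosystem I core genes. Over all tested loci it was the lowest at 39.9% and the highest at 39.4%. For the antenna it was the highest at 6 of 8 genes. LHCB2 had 4.98, 23.0 and 2.83 CPM in PM replicates 1, 2 and 3 (140, 399 and 155 reads). LHCB5 had 5.87, 17.4 and 3.60 CPM in the same libraries (165, 302 and 197 reads). These antenna levels are small beside the AM levels of 11446 to 20879 CPM for LHCB2 and 10047 to 18188 CPM for LHCB5. LHCB2 and LHCB5 were chosen after their values were seen, and the difference in order between the lists was not tested.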
